A study of Mus musculus with 16 samples.

Results

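Variable (V) segments of the immunoglobulin loci were taken as the genes of the mouse table whose symbol begins with *Ighv* (heavy chain), *Igkv* (kappa light chain) or *Iglv* (lambda light chain) and whose value was above 0 in at least 1 library. The segments were thus selected on their normalized counts in these same libraries. The rule gave 170 of 26382 genes, namely 84 *Ighv*, 83 *Igkv* and 3 *Iglv* segments. No row so named was at 0 throughout, so nothing lay just outside the rule, and the members nearest to it were *Igkv10-95*, with a highest value of 0.107 normalized counts, *Igkv11-125* with 0.121 and *Ighv8-2* with 0.132.

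Bulk RNA sequencing of hamstring muscle was carried out in a C57BL/6 mouse model of myositis induced by recombinant histidyl-tRNA synthetase (HRS), the enzyme that charges histidine tRNA and the Jo-1 autoantigen. The mice were female, 8 to 10 weeks old, and killed 14 days after a single intramuscular immunization. In 5 mice (m862 to m866) the titles placed an injection written as ma, read here as HRS, in the left leg and PBS in the right. This gave 5 HRS legs and 5 contralateral PBS legs. The general protocol gives HRS at 3 to 5 mg/mL. It describes injection of both hamstrings instead, and the titles were followed. Another 2 mice (m867 and m868) received PBS alone and gave 4 PBS-only legs, and 2 mice (m860 and m861) gave 1 HRS-MBP library each, labelled as HRS with a title that names an MBP fusion protein at 2 to 3 mg/mL and no side. No transgene or knockout was involved, so all 16 libraries share the C57BL/6 genotype. The 4 PBS-only legs come from only 2 animals and the HRS-MBP group holds 2 libraries, so that p-values involving them rest on a spread shared with the other groups.

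An antibody chain begins with a V segment that a developing B cell joins to shorter D and J segments, or to J alone in a light chain, and the joined exon is spliced to a constant gene. Each B cell clone therefore transcribes mainly 1 heavy and 1 light V segment, and its plasma cell descendants, which secrete antibody, transcribe them at very high levels. Which V segments appear in bulk RNA, and how unevenly, thus follows both the number of B lineage cells and the amount of immunoglobulin RNA in each of them, which bulk libraries cannot tell apart.

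The germline sequences of the segments on which the results below turn are shown to make clear what was counted. They are the final 290 coding bases of each annotated transcript in GENCODE M21 (GRCm38), 5′ to 3′ on the coding strand, credited to that annotation; the authors' table carries the same positions. Capitals begin at a cysteine codon (TGT or TGC directly after TAT, TAC, TTT or TTC) that opens the third complementarity-determining region, the part of the antigen-binding site completed by joining, and run to the end of the segment. This codon was found within the final 60 bases in 168 of the 170 members. The heavy chain segments *Ighv1-76* (chr12:115847881-115848170, minus strand) and *Ighv14-2* (chr12:113994469-113994758, minus strand) and the kappa segments *Igkv17-121* (chr6:68037029-68037318, plus strand) and *Igkv6-25* (chr6:70215668-70215957, plus strand) took most of the HRS leg of m862.
Ighv1-76: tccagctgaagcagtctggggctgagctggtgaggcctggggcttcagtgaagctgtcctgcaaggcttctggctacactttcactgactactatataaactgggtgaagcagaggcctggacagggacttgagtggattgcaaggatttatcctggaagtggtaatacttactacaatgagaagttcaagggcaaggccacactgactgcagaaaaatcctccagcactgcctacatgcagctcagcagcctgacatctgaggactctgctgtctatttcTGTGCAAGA
Ighv14-2: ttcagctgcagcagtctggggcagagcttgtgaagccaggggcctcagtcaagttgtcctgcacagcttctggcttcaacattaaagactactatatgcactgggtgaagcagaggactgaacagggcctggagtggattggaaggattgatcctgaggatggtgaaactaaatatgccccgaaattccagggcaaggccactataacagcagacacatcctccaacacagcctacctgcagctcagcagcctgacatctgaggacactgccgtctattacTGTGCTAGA
Igkv17-121: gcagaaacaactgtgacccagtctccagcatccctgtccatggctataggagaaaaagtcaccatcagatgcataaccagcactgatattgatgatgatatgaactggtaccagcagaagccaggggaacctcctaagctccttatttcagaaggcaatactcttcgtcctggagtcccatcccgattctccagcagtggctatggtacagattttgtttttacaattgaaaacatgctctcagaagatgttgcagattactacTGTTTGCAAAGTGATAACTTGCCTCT
Igkv6-25: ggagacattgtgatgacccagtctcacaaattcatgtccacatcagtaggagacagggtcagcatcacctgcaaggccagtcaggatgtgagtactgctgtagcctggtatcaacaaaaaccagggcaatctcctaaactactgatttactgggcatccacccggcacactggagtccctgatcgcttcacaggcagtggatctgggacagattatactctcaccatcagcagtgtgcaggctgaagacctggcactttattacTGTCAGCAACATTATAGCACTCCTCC

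The next pair, *Ighv11-2* (chr12:114048241-114048530, minus strand) and *Igkv14-126* (chr6:67896353-67896642, plus strand), is shown because the heavy and the light segment were present at similar levels in the 7 HRS libraries.
Ighv11-2: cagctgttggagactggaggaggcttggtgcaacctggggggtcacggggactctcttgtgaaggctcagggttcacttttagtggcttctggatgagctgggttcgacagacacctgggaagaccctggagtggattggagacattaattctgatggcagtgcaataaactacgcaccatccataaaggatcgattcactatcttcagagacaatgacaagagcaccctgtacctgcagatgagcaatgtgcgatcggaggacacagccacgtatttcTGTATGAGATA
Igkv14-126: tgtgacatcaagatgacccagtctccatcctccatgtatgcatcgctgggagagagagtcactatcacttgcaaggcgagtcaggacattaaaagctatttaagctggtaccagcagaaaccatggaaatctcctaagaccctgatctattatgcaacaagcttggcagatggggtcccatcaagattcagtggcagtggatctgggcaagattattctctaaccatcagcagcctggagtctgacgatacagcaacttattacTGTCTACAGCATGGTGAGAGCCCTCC

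The lambda segments *Iglv1* (chr16:19085017-19085306, minus strand) and *Iglv2* (chr16:19260401-19260690, minus strand) are shown because they are 97.6% identical over these bases, with a longest shared run of 104 bases, and yet differed in use between mice.
Iglv1: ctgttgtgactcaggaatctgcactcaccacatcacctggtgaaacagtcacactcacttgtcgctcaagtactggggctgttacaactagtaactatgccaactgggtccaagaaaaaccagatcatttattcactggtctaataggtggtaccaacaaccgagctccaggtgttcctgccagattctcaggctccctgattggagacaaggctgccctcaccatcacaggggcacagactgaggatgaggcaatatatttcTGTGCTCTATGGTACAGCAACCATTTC
Iglv2: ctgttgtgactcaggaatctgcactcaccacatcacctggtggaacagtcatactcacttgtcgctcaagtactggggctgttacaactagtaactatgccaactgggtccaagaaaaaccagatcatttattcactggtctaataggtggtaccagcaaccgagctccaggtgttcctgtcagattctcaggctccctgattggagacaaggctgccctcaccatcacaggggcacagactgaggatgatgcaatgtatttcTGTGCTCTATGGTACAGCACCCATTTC

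Close relatives of this kind limit how well reads can be assigned to a segment. Of the 84 *Ighv* members, 43 had another listed member at 95% identity or more over these bases, and 38 of 83 *Igkv* members did. *Ighv1-62-2* and *Ighv1-71* were identical over the 290 bases. Among the leading segments, *Igkv17-121* was 97.9% identical to *Igkv17-127*, *Igkv5-43* was 99% identical to *Igkv5-45*, and *Ighv1-76* was 95.2% identical to *Ighv1-77*, so values of such neighbours are uncertain to the extent that reads were split between them. In the HRS leg of m862 the value was 64.0 for *Igkv17-121* and 0.580 for *Igkv17-127*, and in the HRS leg of m865 these were 0.112 and 6.42.

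Values are given as the authors' normalized counts. The smallest common step in a library was taken as the worth of 1 read, and it ran from 0.0108 normalized counts in the HRS leg of m863 to 0.121 in the right leg of m868. The implied depth accordingly ran from 8600000 to 73900000 reads, lowest in that PBS-only leg. As the step did not explain all values, these read numbers are approximate, and intervals based on them cover counting error only. Muscle markers (*Acta1*, *Ckm* and 4 others) summed to between 34497 and 142191 in HRS legs and to between 101093 and 162653 in contralateral PBS legs, and *Cd79b*, which encodes a part of the B cell receptor complex, was above 0 in all 16 libraries, at 1.5 to 14.2 in HRS libraries and 0.147 to 0.647 in PBS-injected ones.

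The number of V segments seen separated the immunized from the PBS-injected muscle. The HRS legs of m862, m863, m864, m865 and m866 held 125, 130, 140, 130 and 114 segments above 0. The HRS-MBP libraries of m860 and m861 held 148 and 163. The contralateral PBS legs of m862 to m866 held 11, 22, 47, 25 and 21. Every HRS library thus exceeded every PBS-injected leg, and the PBS leg of m864 was the highest of the latter. The PBS-only legs held 22 (m867 left), 19 (m867 right), 11 (m868 left) and 17 (m868 right). On average 128 ± 9.44 segments (SD, n = 5) were seen in HRS legs and 25.2 ± 13.3 (SD, n = 5) in contralateral PBS legs.

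With a floor of 3 reads, the number fell to between 88 and 115 in HRS legs and to 133 and 159 in the HRS-MBP libraries. It fell to 2, 8, 25, 9 and 11 in the contralateral PBS legs of m862 to m866, and to between 1 and 3 in PBS-only legs. In 7 of the 9 PBS-injected libraries most segments listed thus fell short of 3 reads, the exceptions being the PBS legs of m864 (25 of 47 at 3 reads) and m866 (11 of 21). Of the 170 members, 87 were at 0 in all 9 PBS-injected libraries, 38 reached 3 reads in at least 1 contralateral PBS leg, and 5 did so in a PBS-only leg.

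Thinning by calculation to the depth of the shallowest library left between 72.2 and 106 expected segments in HRS legs, between 3.33 and 29.5 in contralateral PBS legs and between 4.94 and 17.0 in PBS-only legs, and the HRS libraries still did not overlap the others. The difference in number between HRS legs and HRS-MBP libraries also remained when each HRS library was thinned to the 3791 V reads of the HRS leg of m863, with 114 ± 14.7 (SD, n = 5) against 134 ± 4.09 (SD, n = 2) segments, an alternative chosen after the data were seen. These counts are scores over the members and are given without a test.

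**Figure D1:**
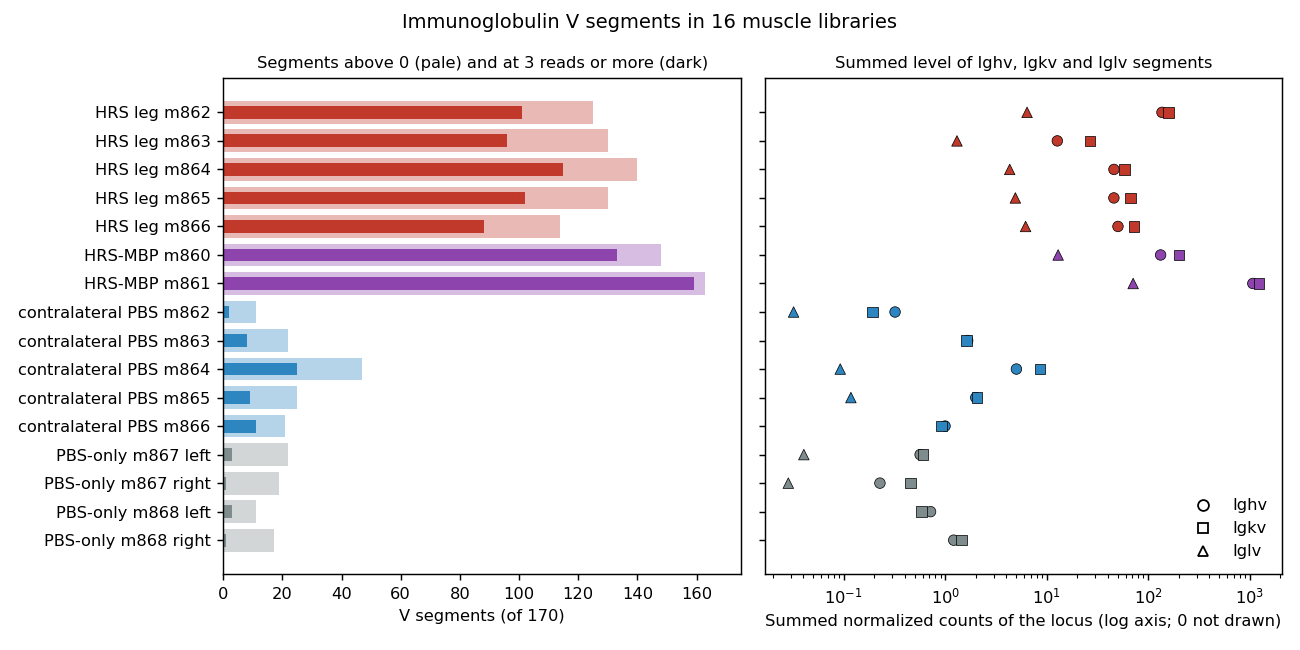
V segments in each of the 16 libraries. Left, the number of segments above 0 (pale bars) and at 3 reads or more (dark bars) of 170 members; right, the summed normalized counts of *Ighv* (circles), *Igkv* (squares) and *Iglv* (triangles) on a log axis, with sums of 0 not drawn. All 7 HRS libraries hold at least 114 segments, and no PBS-injected leg holds more than 47.

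The summed level of the V segments showed the same separation with a wider spread among mice. It was 302, 40.9, 109, 118 and 129 normalized counts in the HRS legs of m862 to m866. It was 347 in m860 and 2384 in m861. It was 0.545, 3.28, 13.7, 4.18 and 1.91 in the contralateral PBS legs. Within a mouse, the HRS leg stood above the PBS leg by 554-fold in m862, 12.5-fold in m863, 7.94-fold in m864, 28.3-fold in m865 and 67.5-fold in m866, so all 5 mice had the same direction but very unequal ratios. The PBS legs behind these ratios held few V reads, from 17 in m862 to 297 in m864. PBS-only legs lay between 0.711 and 2.67, overlapping the contralateral PBS legs.

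Heavy and light chain loci moved together. The *Ighv* sum divided by the sum of *Igkv* and *Iglv* lay between 0.452 and 0.830 in the 7 HRS libraries, so light chain segments had the higher summed value in each. The *Igkv* sum was between 0.360 and 0.512 times the value of *Igkc*, the kappa constant gene, in these libraries. The heavy chain behaved differently in PBS-injected muscle, where *Ighm*, the constant gene of IgM, was between 51.3 and 92.0 normalized counts while the *Ighv* sum was only 0.227 to 5.03. In HRS libraries *Ighm* ran from 99 to 3374. The value of *Ighm* in PBS-injected muscle was therefore not matched by V segment reads, and what those reads represent was not tested.

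The leading heavy chain segment differed among the 5 HRS legs. In the HRS leg of m862, *Ighv1-76* took 45.3% of the *Ighv* value (95% Wilson interval 44.3% to 46.3%) and *Ighv14-2* another 33.9%. *Ighv5-16* led in m863 with 21.4%, *Ighv1-42* in m864 with 27.0%, *Ighv4-1* in m865 with 13.3% and *Ighv2-2* in m866 with 16.6%. In the HRS-MBP libraries *Ighv14-3* led in m860 with 9.93% and *Ighv1-76* in m861 with 20.3%. The 7 libraries thus had 6 different leaders, and only *Ighv1-76* led in more than 1.

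Some segments that were high in the HRS leg of one mouse were close to absent in the other HRS legs, though not always in the HRS-MBP libraries. *Ighv14-2* had 46.5 normalized counts in the HRS leg of m862 and 0.0864, 0.104, 0.285 and 0.343 in those of m863 to m866, with 0.252 in m860 and 54.6 in m861. *Ighv1-42* had 12.5 in the HRS leg of m864 and 0.0882, 0, 0.107 and 0 in those of m862, m863, m865 and m866, with 3.24 in m860 and 1.45 in m861. *Ighv2-2* had 8.38 in the HRS leg of m866 and between 0 and 0.0838 in the other 4, with 0.265 in m860 and 2.03 in m861. In each case a single HRS leg was high and the other 4 were at 0.343 or below, while at least 1 HRS-MBP library was above 1. *Ighv1-64*, by contrast, was above 0.1 in all 5 HRS legs, with 8.95, 0.140, 7.59, 0.498 and 5.17 in m862 to m866.

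Kappa segments gave a similar picture. *Igkv17-121* took 40.4% of the *Igkv* value in the HRS leg of m862 and *Igkv6-25*, named after its values were seen, another 25.7%. *Igkv1-135* led in m863 with 16.5%, *Igkv10-96* in m864 with 23.1%, *Igkv5-43* in m865 with 22.9% and *Igkv1-117* in m866 with 11.2%. *Igkv1-135* led again in m860 with 10.0%, and *Igkv6-15* led in m861 with 7.80%. Again there were 6 different leaders among 7 libraries.

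By value, *Igkv17-121* had 64.0 normalized counts in the HRS leg of m862, then 0.0216, 0.810, 0.112 and 5.28 in those of m863 to m866, with 2.97 in m860 and 17.8 in m861. *Igkv10-96* had 0.742, 1.26, 13.5, 11.7 and 0.455 in the HRS legs of m862 to m866, so m864 and m865 stood above the rest. *Igkv5-43* had 2.0, 2.47, 1.59, 15.4 and 0.218, with m865 alone above 3. A second segment of high share was also present in m864, where *Igkv4-59* took 20.2%.

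**Figure D2:**
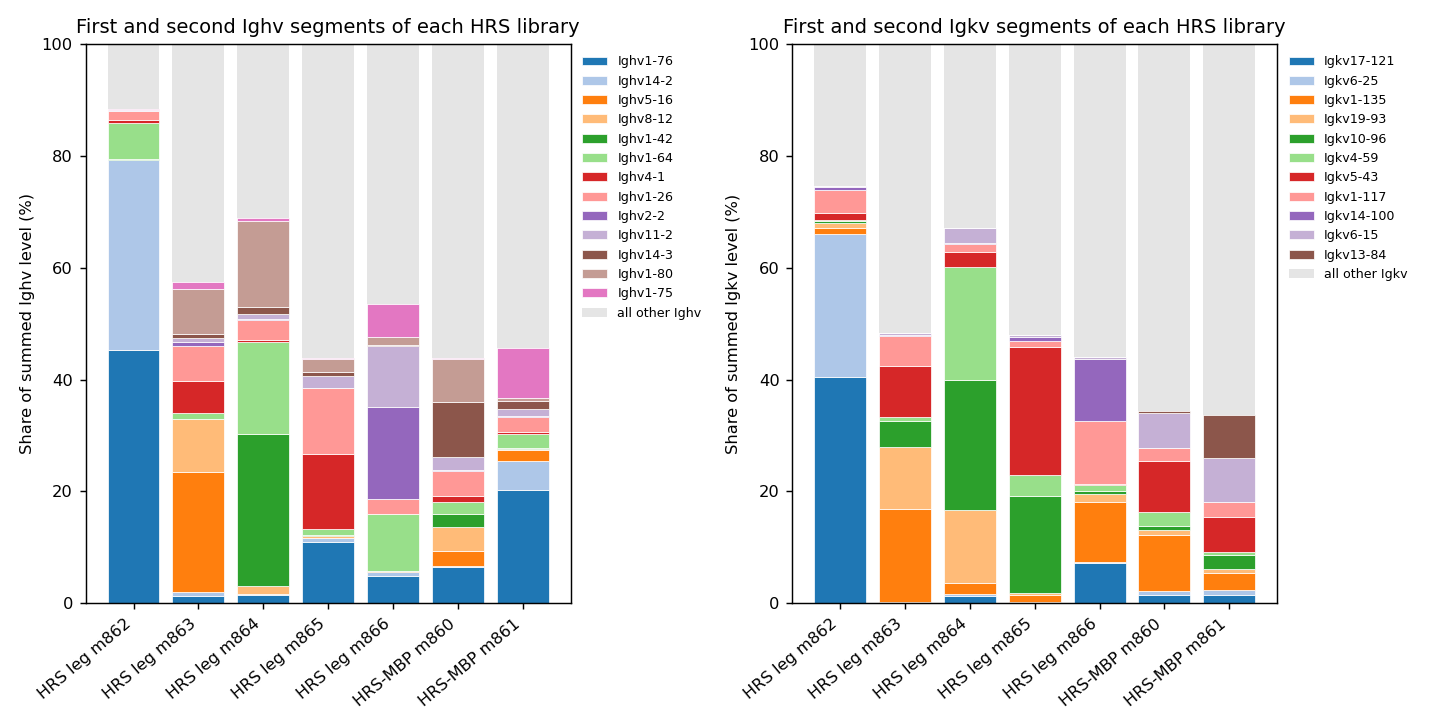
Share of the summed *Ighv* (left) and *Igkv* (right) level, in percent, taken in each of the 7 HRS libraries by the segments that were first or second in at least 1 of them; all remaining segments are pale grey. The 2 leading heavy chain segments of m862 take 79.2% of its *Ighv* value, and most other libraries have leaders of their own.

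Counted over the 7 HRS libraries, 22 *Ighv* segments were among the first 5 of at least 1 library and 13 of them in only 1. For *Igkv* these numbers were 26 and 20. The segments most often among the first 5 were *Ighv1-76* and *Igkv5-43*, each in 4 of 7 libraries, and none was so in all. At the same time 44 members reached 3 reads in every HRS library, 16 of them *Ighv* and 26 *Igkv*. Even among these widely seen segments the highest share in a library was a median of 35.5 times the lowest for *Ighv* and 23.7 times for *Igkv*. The steadiest were *Ighv1-59*, with a ratio of 6.23, and *Igkv9-120*, with 5.02.

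The concentration of use differed among mice more than the number of segments did. The inverse Simpson number, which equals the number of segments that would give the observed concentration if all were used equally, was 3.07, 11.5, 7.36, 12.1 and 13.5 for *Ighv* in the HRS legs of m862 to m866. It was 4.15, 13.6, 8.36, 9.11 and 14.3 for *Igkv* in the same legs. The HRS leg of m862 was the most concentrated for both chains, and that of m866 the least. The HRS leg of m862 held 62 *Ighv* segments above 0 all the same, of which 7 had 1% of the value or more. In the HRS-MBP libraries the number was 23.6 and 15.2 for *Ighv* and 20.9 and 26.1 for *Igkv* (m860 and m861), above every HRS leg for both chains.

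Put as segments needed to reach 50% of the value, the HRS leg of m862 needed 2 *Ighv* and 2 *Igkv* segments, that of m864 needed 3 and 3, and those of m863 and m866 needed 5 and 5. The HRS leg of m865 needed 5 and 4. The HRS-MBP libraries needed 9 and 7 in m860 and 8 and 9 in m861. The mean inverse Simpson number in HRS legs was 9.52 ± 4.28 (SD, n = 5) for *Ighv* and 9.90 ± 4.15 (SD, n = 5) for *Igkv*, so the 2 chains did not differ beyond the spread among mice. V reads in these legs ran from 3791 in m863 to 20543 in m862, so the most concentrated leg was also the one with the most V reads, while m861, with 107211, was among the least concentrated.

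**Figure D3:**
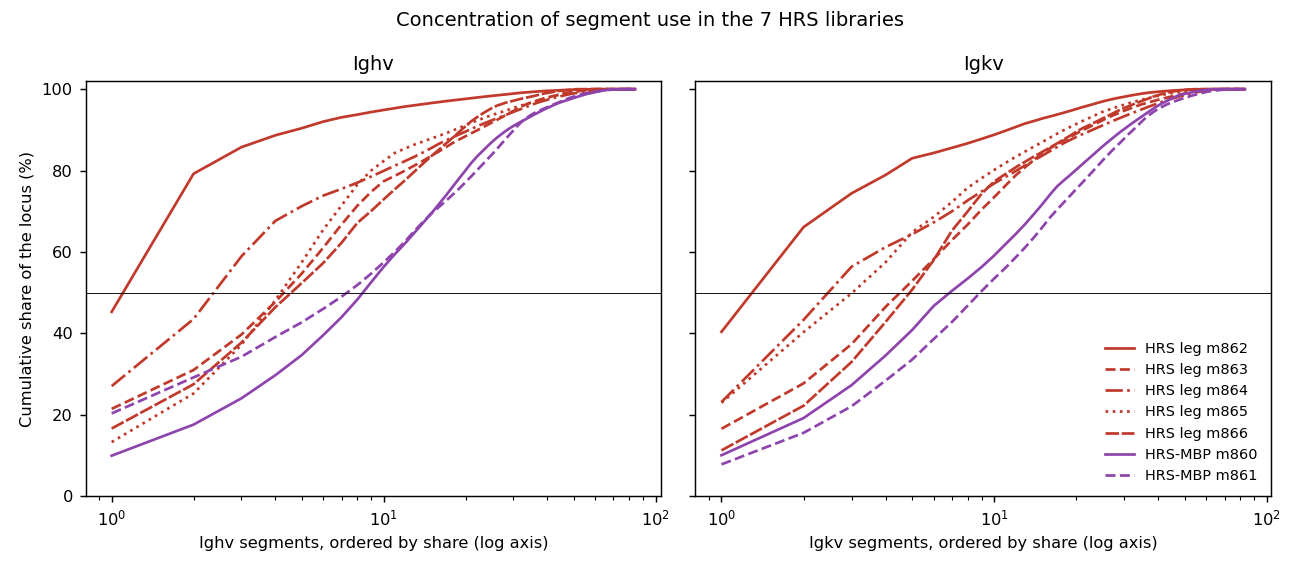
Cumulative share of the *Ighv* (left) and *Igkv* (right) value, in percent, against the number of segments in order of share (log axis) in the 5 HRS legs (red) and 2 HRS-MBP libraries (purple); the horizontal line marks 50%. The line of the HRS leg of m862 starts at 45.3% and 40.4% and stays above all others over the first segments.

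By family, the *Ighv1* segments, which make up 44 of the 84 *Ighv* members, took between 38.2% and 87.5% of the *Ighv* value in HRS legs (median 60.1%), with 68.1% in m860 and 69.6% in m861. That is close to or above their 52.4% of members in all HRS libraries but m863, where the *Ighv5* family took 25.3% and the *Ighv8* family 14.4%. The *Igkv4* family, with 23 members, took between 7.13% and 25.1% in HRS legs. The 42 *Ighv* segments farthest from the constant genes took 44.7% to 78.3% of the value in HRS legs, and the 41 farthest *Igkv* segments took 50.7% to 63.1%, against 42.0% and 43.4% in m860 and m861. No family or part of a locus was absent from the HRS legs other than *Ighv4*, *Ighv12*, *Ighv15*, *Igkv11* and *Igkv15*, which have 1 member each and were at 0 in at least 1 leg.

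Lambda light chains made up a small part throughout. *Iglv* segments took 3.88%, 4.63%, 6.88%, 6.80% and 7.89% of the light chain V value in the HRS legs of m862 to m866, with 6.06% in m860 and 5.44% in m861. *Iglv1* supplied 91.4% to 95.8% of it in 4 HRS legs and 92.2% in m860. The HRS leg of m866 differed, with 51.5% *Iglv1* (95% Wilson interval 44.8% to 58.6%) and 47.0% *Iglv2*, and m861 had 76.9% and 17.5%. In normalized counts, *Iglv2* was 0.0459, 0.0685, 0.148, 0.0368 and 2.91 in the HRS legs of m862 to m866, so only m866 stood out. The lambda constant gene *Iglc2* was also highest in that leg, at 7.76 against 0.98 to 2.48 in the others.

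The pair *Ighv11-2* and *Igkv14-126*, singled out after the values were seen, is known from B-1 cells, an innate-like B cell subset in which this combination binds phosphatidylcholine. In reads, *Ighv11-2* and *Igkv14-126* had 16 and 21 in the HRS leg of m862, 9 and 16 in m863, 27 and 33 in m864, 52 and 57 in m865 and 176 and 168 in m866. They had 151 and 131 in m860 and 595 and 549 in m861. The 2 segments thus followed each other over a wide range, although they lie on different chromosomes, and they ranked second and seventh of their loci in the HRS leg of m866.

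The same pair was prominent in 2 PBS legs. In the contralateral PBS leg of m865 *Ighv11-2* took 32.4% of the *Ighv* value and *Igkv14-126* took 20% of the *Igkv* value, with 22 and 14 reads, second in both loci. In that of m863 they took 9.90% and 16.3%, with 10 and 16 reads, again second in both. In the contralateral PBS legs of m862 and m866 both were at 0. Between HRS legs and contralateral PBS legs the log2 difference was 1.03 ± 0.52 (SE) for *Ighv11-2* (limma, adjusted p = 0.0963) and 1.11 ± 0.49 (SE) for *Igkv14-126* (adjusted p = 0.0597), and neither passed the test.

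**Figure D4:**
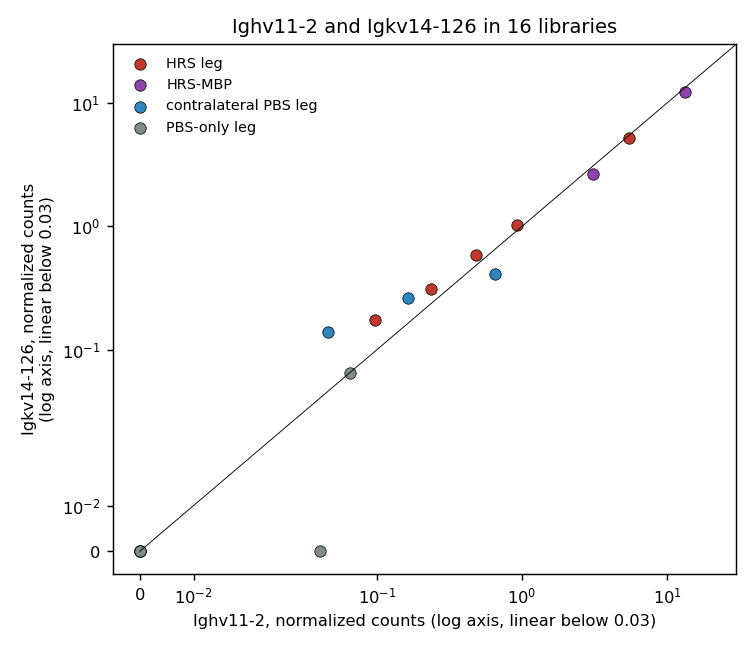
*Igkv14-126* against *Ighv11-2* in normalized counts in the 16 libraries, on log axes that are linear below 0.03, with the line of equal values. The 7 HRS libraries lie along the line, up to 13.2 and 12.2 in m861, whereas PBS-injected legs with few reads scatter more (0.0462 against 0.139 in the PBS leg of m864); libraries with neither segment coincide at 0.

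The leading segments of the PBS legs were carried by few reads and did not repeat those of the other leg as a rule. In the contralateral PBS leg of m863, *Ighv5-4* took 74.3% of 101 *Ighv* reads (95% Wilson interval 65.0% to 81.8%) and *Igkv4-53* took 65.3% of 98 *Igkv* reads. In the HRS leg of the same mouse these had 0.173 and 0.0432 normalized counts, below the 1.24 and 1.05 of its PBS leg. In that of m865, *Ighv9-3* took 47.1% of 68 reads and *Igkv4-57* took 49.9% of 70 reads. In the PBS leg of m864 *Ighv1-42*, the leader of its HRS leg at 27.0%, was second with 15.6% of 109 reads, and *Igkv10-96*, the leader at 23.1%, was second with 18.8% of 186 reads. In that of m862 *Ighv1-76*, which led its HRS leg, took 20% of only 10 *Ighv* reads, level with *Ighv1-64* in second place. In the PBS legs of m863, m865 and m866 the first *Ighv* and the first *Igkv* segment of the HRS leg were at 0.

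The overlap of segment use, which sums over segments the lower of the 2 shares and is 100% for identical use, put these cases side by side. Between the legs of 1 mouse the *Ighv* overlap was 37.6%, 4.90%, 32.0%, 11.4% and 18.3% for m862 to m866. Among the 5 HRS legs, the PBS leg was most like that of its own mouse in m862 and m864, and more like that of another mouse in m863, m865 and m866. The PBS leg of m864 had a higher overlap still, 33.6%, with the HRS-MBP library of m860. For *Igkv* the overlap within a mouse was 17.3%, 11.1%, 34.9%, 16.8% and 20.4%, and the own leg came first among the 5 HRS legs only in m864. HRS legs of different mice overlapped by 13.8% to 35.8% for *Ighv* (median 23.2%, 10 pairs) and by 12.8% to 43.4% for *Igkv* (median 24.1%). Pairs share libraries and PBS legs hold few reads, so these values are descriptive.

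2 segments were above 0 in all 16 libraries, *Ighv14-2* and *Igkv17-121*, which ranked second and first of their loci in the HRS leg of m862. Over the 9 PBS-injected libraries they were carried by 30 and 33 reads, at 0.0284 to 0.326 and 0.0244 to 0.416 normalized counts. In the left leg of PBS-only mouse m868, *Ighv14-2* and *Ighv1-76* together took 72.7% of 11 *Ighv* reads. That library had its highest *Ighv* overlap, 61.4%, with the HRS leg of m862, a different mouse, and overlapped by 28.8% with m861. In the left leg of m867, *Ighv14-2* and *Ighv1-76* took 28.6% and 21.4% of 14 *Ighv* reads. Its overlap with the HRS leg of m862 was 50.9%. How these few reads arose was not tested.

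Each gene averaging at least 0.5 over the libraries was tested with limma after adding a pseudocount of 0.5 and taking log2, and a difference was called at a Benjamini-Hochberg adjusted p below 0.05 with a log2 difference above 1. Because many segments were at 0 in PBS legs, the log2 differences understate the change of low segments and are no measure of fold against 0. Of the 170 members, 85 passed the filter (40 *Ighv*, 43 *Igkv* and 2 *Iglv*, without *Iglv3*), mostly through HRS libraries, so counts among them support nothing beyond the calls themselves.

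Between HRS legs and contralateral PBS legs, 22 of the 85 tested segments were called higher (7 *Ighv*, 14 *Igkv* and 1 *Iglv*) and 0 lower, beside 16.9% of all 16414 genes tested called higher and 6.27% called lower. The members' share is to be read against that background. The count depended on the treatment of low values, with 40 called under a smaller pseudocount, 6 under a pseudocount of 2, 14 after quantile normalization and 34 with limma-voom. Without the filter, 20 of 170 members were called, beside 10.8% of all genes. The median log2 difference of the 85 was 0.78, beside 0.08 over all genes. Values of 33 members did not overlap between the groups, beside 18.3% of all genes.

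*Iglv1* showed the largest difference, with 6.14, 1.19, 4.03, 4.70 and 3.19 normalized counts in HRS legs and 0.0320, 0, 0.0924, 0.118 and 0 in contralateral PBS legs of m862 to m866. The groups did not overlap, and the log2 difference was 2.86 ± 0.36 (SE, limma, adjusted p = 2.4e-05). *Ighv1-64* rose by 2.52 ± 0.69 (SE, adjusted p = 0.00595) and *Igkv1-135* by 2.44 ± 0.39 (SE, adjusted p = 0.000186), both higher in the HRS leg of 5 of 5 mice.

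The segments with the largest values of all were not the surest calls. *Ighv1-76* rose by 2.59 ± 0.98 (SE, adjusted p = 0.0328), with 62.0, 0.162, 0.643, 5.06 and 2.46 normalized counts in HRS legs and 0.0641, 0, 0.323, 0.118 and 0.188 in contralateral PBS legs, so that the HRS leg of m863 lay within the range of the PBS legs. This call was lost without m862 (1.54, adjusted p = 0.121), without m865 (2.44, adjusted p = 0.0988) and with the legs paired by mouse as a block (adjusted p = 0.0547). It was also lost with a pseudocount of 2 (1.60, adjusted p = 0.0982), after quantile normalization (2.30, adjusted p = 0.0653) and with limma-voom (3.02, adjusted p = 0.0738). *Igkv17-121* differed by 2.11 ± 0.98 (SE, adjusted p = 0.0743) and *Ighv14-2* by 1.41 ± 1.13 (SE, adjusted p = 0.288), and neither passed. *Igkv17-121* did pass with limma-voom (2.56, adjusted p = 0.0468). Of the heavy chain leaders of single HRS legs, *Ighv4-1* (1.25 ± 0.51, SE, adjusted p = 0.0425) passed, and *Ighv5-16*, *Ighv1-42* and *Ighv2-2* did not. Of these, *Ighv2-2* passed with limma-voom (1.39, adjusted p = 0.0495). The *Ighv4-1* call was lost with the block (adjusted p = 0.0913) and without m862, m863 or m865 (adjusted p = 0.0919, 0.103 and 0.108, with a difference of 0.64 without m865). It was lost as well without the filter (adjusted p = 0.0553), after quantile normalization (0.103), in a fit of the 2 groups alone (0.0801) and with a pseudocount of 2 (0.0944). Of the kappa leaders, *Igkv1-135*, *Igkv5-43* (2.41, adjusted p = 0.00277), *Igkv1-117* (2.48, adjusted p = 0.00161) and *Igkv10-96* (2.09, adjusted p = 0.0362) passed, the last of them not without m863, m864 or m865 (adjusted p = 0.0732, 0.0594 and 0.16). Nor did *Igkv10-96* pass without the filter, after quantile normalization or with a pseudocount of 2 (adjusted p = 0.0512, 0.0852 and 0.0808). Of the 22 called segments, 20 were higher in the HRS leg of 5 of 5 mice.

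Against PBS-only legs, 23 segments were called higher and 0 lower, beside 18.9% of all genes called higher and 5.87% called lower. Without the filter, 21 of 170 members were called, beside 12% of all genes. Values of 52 members did not overlap between the groups, beside 26.6% of all genes. *Iglv1* again led, with a log2 difference of 2.94 ± 0.38 (SE, limma, adjusted p = 2.93e-05), then *Ighv1-76* with 2.72 ± 1.04 (SE, adjusted p = 0.0343) and *Ighv1-64* with 2.49 ± 0.73 (SE, adjusted p = 0.00913). The count was 43 under a smaller pseudocount, 6 under a pseudocount of 2, 11 after quantile normalization and 10 when m867 and m868 each entered as 1 averaged sample. In that last fit neither *Ighv1-76* (adjusted p = 0.126) nor *Ighv1-64* (adjusted p = 0.0556) was called. The *Ighv1-76* call was also lost without the HRS leg of m862 (1.71, adjusted p = 0.07) or m865 (adjusted p = 0.0653), and without any 1 of the 4 PBS-only legs (adjusted p = 0.0551 to 0.0679). Further settings that ended it were a pseudocount of 2, quantile normalization, limma-voom and a fit of the 2 groups alone (adjusted p = 0.11, 0.0752, 0.0841 and 0.0548). Both comparisons use the same HRS legs and are not independent of each other.

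Between contralateral PBS legs and PBS-only legs, 0 segments were called in either direction, with 0 also at an unadjusted p below 0.05 in limma and 0 called by limma-voom. Of all genes, 0% were called higher and 0.00609% (1 gene) lower. The largest log2 difference of a member was 0.48, and no member had groups that did not overlap, beside 2.3% of all genes. At 17 to 297 V reads in a contralateral PBS leg and 20 to 30 in a PBS-only leg, these groups hold few reads per segment, and the size of difference this depth could show was not tested.

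The HRS-MBP libraries differed most. Against PBS-only legs, 81 of 85 tested segments were called higher, beside 20.7% of all genes called higher and 10.2% called lower, and *Ighv14-2*, *Ighv2-2*, *Igkv14-100* and *Igkv2-109* were the 4 not called. *Ighv1-76* had 8.58 normalized counts in m860 and 219 in m861, with 0 to 0.196 in PBS-only legs, and a log2 difference of 6.28 ± 1.35 (SE, limma, adjusted p = 0.00149). *Igkv5-43* (18.4 and 78.1, difference 6.22 ± 0.80, SE, adjusted p = 2.1e-05) and *Igkv6-15* (12.5 and 96.4, difference 6.15 ± 0.57, SE, adjusted p = 2.47e-06) followed. Without the filter, 122 of 170 members were called, beside 13.7% of all genes, and 83 tested members did not overlap between the groups, beside 39.8% of all genes. Without m861, 50 segments were called, and *Ighv1-76* was not among them (3.98, adjusted p = 0.0516).

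Against HRS legs, 35 segments were called higher in HRS-MBP libraries and 0 lower (14 *Ighv*, 20 *Igkv* and 1 *Iglv*), beside 0.396% of all genes called higher and 0.067% called lower. They made up 35 of the 65 genes called higher. Without the filter, 55 of 170 members were called, beside 0.375% of all genes. *Igkv6-15* had 0.456, 0.0972, 1.59, 0.169 and 0.280 normalized counts in the HRS legs of m862 to m866 and rose by 5.29 ± 0.55 (SE, limma, adjusted p = 0.000113). *Igkv6-32* had 6.11 and 80.8 in HRS-MBP libraries and 0.0324 to 0.268 in HRS legs, and rose by 5.21 ± 0.58 (SE, adjusted p = 0.000217). *Igkv12-44*, with 16.3 and 51.9 against at most 2.17 in an HRS leg, rose by 4.61 ± 0.48 (SE, adjusted p = 0.000113). All of the 35 had values in both HRS-MBP libraries above those of every HRS leg, and over the tested members this held for 43, beside 7.1% of all genes.

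This comparison rests on 2 libraries and on how their spread was estimated. A fit of the 2 groups alone called 3 segments, with *Igkv6-15*, *Igkv6-32* and *Igkv12-44* not called (adjusted p = 0.184, 0.223 and 0.184), and 21 were called without m861 and 60 without m860. *Ighv14-3*, with 13.2 in m860 and 16 in m861 against 0.0294 to 0.498 in HRS legs, rose by 4.46 ± 0.24 (SE, adjusted p = 8.64e-08). The amount of protein, the fusion partner and the mice differed together between these groups. No injected side is stated for the HRS-MBP mice, so the injection scheme may differ as well. The parts of all these cannot be told apart.

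**Figure D5:**
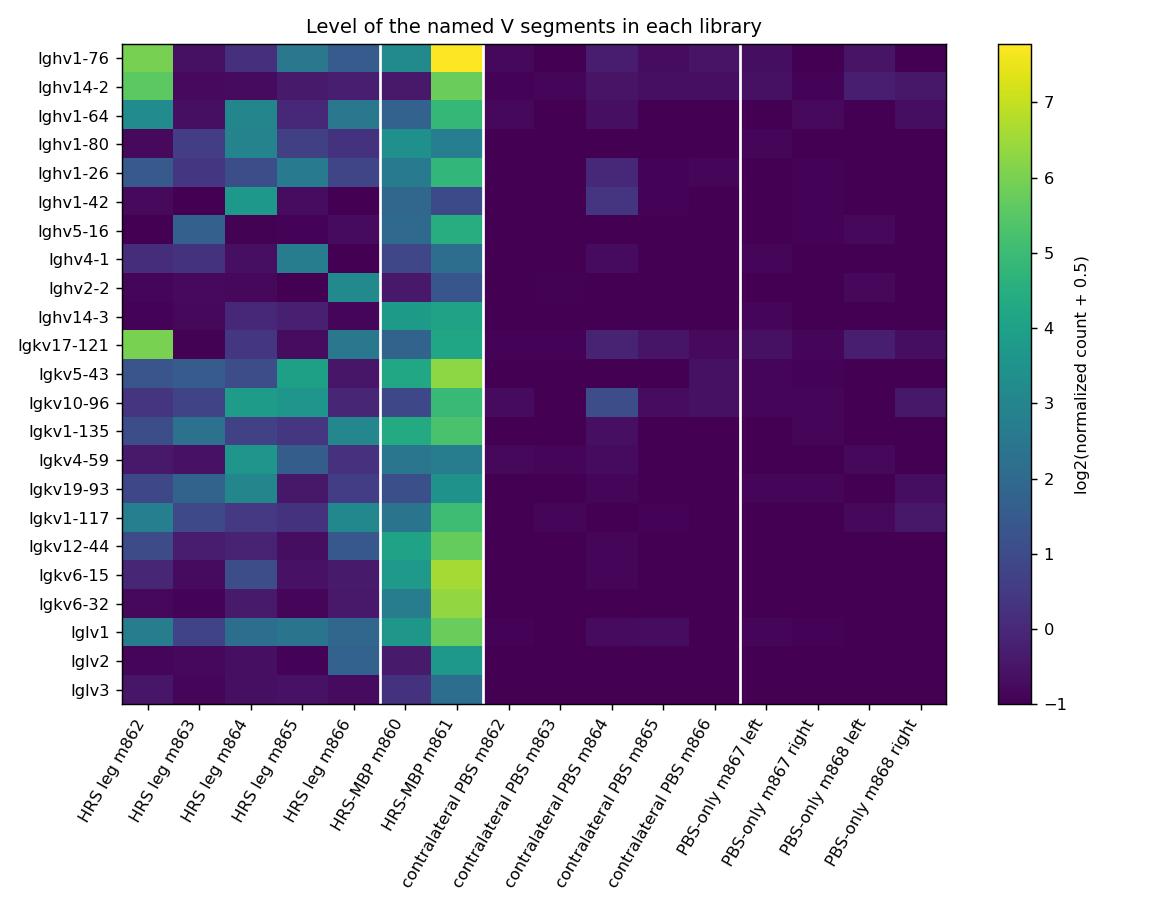
Level of the 23 named V segments in each of the 16 libraries as log2(normalized count + 0.5), from -1 (a value of 0) to the highest value in m861. White lines separate HRS legs, HRS-MBP libraries, contralateral PBS legs and PBS-only legs; few cells outside the HRS libraries rise above the lowest colour.

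Genes that act with the V segments were read from lists, and those named here were picked after their values were seen. Each count of genes called in these lists stands beside 16.9% of all genes called higher in this comparison. Of 7 heavy chain constant genes tested between HRS legs and contralateral PBS legs, 6 were called higher, led by *Ighg2c* of IgG2c with 12.5 to 500 normalized counts against 0.48 to 3.85 (log2 difference 5.06 ± 0.86, SE, limma, adjusted p = 0.000265). All 4 light chain constant genes were called higher, *Igkc* by 5.00 ± 0.60 (SE, adjusted p = 1.51e-05). Switched isotypes (IgG and IgA) made up most of the heavy chain constant value in the HRS legs of m862 and m864, where *Ighm* took 22.9% and 29.5%, whereas it took 69.6%, 58.5% and 68.9% in those of m863, m865 and m866.

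Of 8 genes for antibody assembly in the endoplasmic reticulum, 5 were called higher, with *Jchain*, the joining chain of secreted IgM and IgA, at 14.5 to 43.1 in HRS legs and 0.192 to 4.39 in contralateral PBS legs. Of 5 tested V(D)J recombination genes, 1 was called higher, near that background, the median log2 difference was -0.09, and *Rag1*, which starts the cutting, was at most 0.0357 in HRS libraries. The surrogate light chain genes of B cell precursors summed to 0.187 to 0.325 in HRS legs, and none passed the filter. Of 5 tested genes for class switching and somatic mutation, 1 was called higher, again near the background, and the list summed to 42.5 to 57.1 in HRS legs and 51.4 to 59.5 in contralateral PBS legs.

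Markers of other cells differed between the same groups as the V segments. Of 8 B cell markers, 6 of 7 tested were called higher in HRS legs than in contralateral PBS legs, beside 16.9% of all genes, with sums of 5.75 to 42.9 against 0.882 to 1.66. Of 8 plasma cell markers, 4 of 7 tested were called higher, with sums of 160 to 203 against 115 to 159. The sums were 247 in m860 and 960.3 in m861. PBS-only legs summed to 101 to 108 with *Jchain* at 0.227 to 0.782, so other genes of the list made up most of the sum there. Of 6 germinal centre B cell markers, 2 of 4 tested were called higher, with overlapping sums of 95.1 to 119.7 against 84.5 to 161. All 6 T cell markers and all 4 macrophage markers were called higher, the latter with sums of 913 to 4720 against 79.5 to 230.5. The 6 markers of lymph node stroma and vessels summed to 26.9 to 54.4 against 3.51 to 13.7, with the 3 tested called higher. Of that list, *Glycam1* and *Madcam1* were above 0 in the HRS legs of m862 to m865, up to 1.64 and 0.30, and at 0 in that of m866. Among the HRS legs the order of these sums was not that of the V sum. The leg of m866, with the second highest V sum (129), had the lowest B cell, T cell (14.1) and macrophage sums and the highest muscle sum, and that of m864 had the highest B cell, T cell (105.6) and macrophage sums with a V sum of 109. *Jchain*, a single gene of the plasma cell list, was 42.2, 14.5, 20.1, 28.7 and 43.1 in the HRS legs of m862 to m866. Like the V sum, it was lowest in m863 and highest in m862 and m866. The part of the cells named here in the V segment values was not tested.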

How the data were processed

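Hamstring RNA of 9 mice was sequenced as 16 poly(A)-selected libraries. The authors deposited normalized counts per gene, a signal scaled between libraries, and not the raw counts; their processing notes name STAR 2.7.8a, limma and mm39, whereas the positions in the table match GENCODE M21 on GRCm38. How reads shared by near-identical segments were counted is not given in the sources used here. Of low values, 69.7% to 73.5% were whole multiples of the library's commonest step (tolerance 0.02 steps), so whole reads were not recovered and a floor of 3 reads is approximate.

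Values were tested as log2(value + 0.5) in a single limma 3.58.1 fit (R 4.3.3) of the 4 groups with a mean-variance trend, over genes with a mean of at least 0.5, with Benjamini-Hochberg adjustment over all of them. Legs served as replicates, although the 4 PBS-only legs come from 2 mice. Shares, the inverse Simpson number and overlap were computed within each locus, with Wilson 95% intervals covering counting error only. Named were the 6 *Ighv*, 6 *Igkv* and 3 *Iglv* segments with the highest mean share over the 7 HRS libraries, the first *Ighv* and *Igkv* segment of each, and the 3 largest called differences of each comparison; others were named after their values were seen. Members and gene lists were chosen with earlier results of these data known. The titles pair the legs of 5 mice, whose deviations from the group means correlated at 0.12, 0.16, 0.10, -0.03 and -0.37. Pseudocounts, filters, scaling, limma-voom, thinning, the pairing and leaving out libraries were tried as alternatives.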

Additional observations from a re-analysis of the deposited data

Results flagged for a closer look

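A library was listed here when its gap to the nearest of its group, divided by the range of the group, passed Dixon's 95% critical value. Of 69 groups of values examined, 16 did so. The critical value assumes normally distributed values chosen without regard to the data. As many segments were named on these values, no rate by chance is given. Most of the 16 are levels of single segments, and many of these were named because they led 1 HRS library or had a high mean share, so the choice itself favoured a library that stands apart and the number of cases supports nothing. No explanation was tested.

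The HRS leg of m862 stood apart with 62.0 normalized counts of *Ighv1-76*, 46.5 of *Ighv14-2* and 64.0 of *Igkv17-121*. In m863 the HRS leg stood apart with 2.73 of *Ighv5-16*. In m864 it stood apart with 12.5 of *Ighv1-42*, 7.09 of *Ighv1-80*, 11.8 of *Igkv4-59* and 1.59 of *Igkv6-15*. In m865 it stood apart with 6.11 of *Ighv4-1* and 15.4 of *Igkv5-43*. In m866 it stood apart with 8.38 of *Ighv2-2* and 2.91 of *Iglv2*, and its leading lambda segment took 51.5% of the *Iglv* value where the other 4 legs had 91.4% to 95.8%.

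Among PBS-injected legs, the contralateral leg of m864 had a V sum of 13.7 and an *Igkv* sum of 8.59 normalized counts, above the 0.545 to 4.18 and 0.192 to 2.06 of the others. In PBS-only mouse m868 the right leg had an *Igkv* sum of 1.46 against 0.455 to 0.607, carried by 12 reads in the shallowest library.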

How the results depend on the processing

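The count of segments called higher in HRS legs against contralateral PBS legs was 22. It was 40 with a smaller pseudocount, 6 with a pseudocount of 2, 14 after quantile normalization and 34 with limma-voom. With both legs of 1 mouse left out it was 16 to 22. A replicate block for the paired legs gave 20 and ended, among the named segments, the calls of *Ighv1-76* and *Ighv4-1*. Against PBS-only legs the count was 23, and became 43, 6 and 11 under the first 3 of these, 10 with 1 averaged sample per PBS-only mouse, and 18 to 24 with 1 library left out. HRS-MBP against PBS-only gave 81, 122 without the filter and 50 to 81 with 1 library left out (50 without m861). HRS-MBP against HRS legs gave 35, 55 without the filter, 3 in a fit of the 2 groups alone, and 21 (without m861) to 60 (without m860); a lone HRS-MBP library is assumed to vary like the other groups. No segment was called lower under any alternative run, and none was called between the PBS groups. The causes were not tested.

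The mean number of segments in HRS legs, 127.8, was 100.4 at 3 reads in that library, 40.2 at 3 reads of the shallowest library, 88.8 at the shallowest depth and 114 with V reads thinned to the fewest among HRS libraries (chosen after seeing the data), and 124.75 to 131.25 with 1 library left out. For HRS-MBP, 155.5 became 116.5 at 3 reads of the shallowest library, 144 at the shallowest depth and 134 with V reads thinned (148 to 163 with 1 left out). For contralateral PBS legs, 25.2 became 11 and 3.4 at the 2 floors of 3 reads (19.75 to 28.75 with 1 left out), and for PBS-only legs 17.25 became 2, 0.25 and, at the shallowest depth, 8.95 (15.7 to 19.3 with 1 left out). With segments under 3 reads left out, the mean inverse Simpson number of HRS legs was 9.30 for *Ighv* and 9.82 for *Igkv*; with 1 library left out it ran from 8.51 to 11.1 and from 8.79 to 11.3. PBS legs, at 17 to 297 V reads, limit what can be said of their segment use.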
